A study of Mus musculus with 18 samples.

Results

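Livers of mice fed a Western-style diet that contained quercetin were compared with livers of mice fed a purified control diet. The comparison took 12 of the 18 arrays of the series by their titles, 6 for each of these diets, and described them across all genes. Every animal was a male C57BL/6J mouse, bought at 5 weeks of age and kept on a standard diet for 1 week before 20 weeks of test feeding. The Western-plus-quercetin group ate a diet with 39.9% of its energy from fat (20% butter, 1% soy oil and 0.15% cholesterol), 34.0% from sucrose, and 0.05% quercetin. A second Western-fed group of 6 mice ate the same diet without quercetin. The control group ate AIN93G, a purified rodent diet, with no quercetin. Mice were housed 3 to a cage, and which mice shared a cage is not stated, so p-values measure the spread between mice and any spread between cages was not modelled. Total RNA of whole liver from 1 mouse was hybridised to each Affymetrix array. The fat, cholesterol, sucrose and quercetin of the diet all differ between these 2 groups and cannot be told apart within the comparison; mice fed quercetin in the control diet are not analysed here.

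A diet rich in fat, sugar and cholesterol makes hepatocytes store triglyceride in lipid droplets, protein-coated drops whose size depends on coat and fusion proteins. Cholesterol that reaches the liver holds the transcription factor SREBP2 in the endoplasmic reticulum, and the enzymes that make sterols are then transcribed less. Fat-laden liver can also gather macrophages and activated stellate cells, the cells that lay down collagen. Quercetin is a plant flavonol that the body conjugates to glucuronide and sulphate before excretion.

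Levels are log2 signals, log2(deposited intensity + 16) after quantile normalization, so a probe set with no signal has a level of 4 before normalization and differences of dim genes are understated. Control arrays 4 and 5 differed by less than any other pair of arrays. The SD of their log2 differences was 0.0689 over 5792 bright probe sets, where the next closest of 153 pairs had 0.175. They were averaged and counted as 1 mouse (4-5), which left 11 samples in the comparison, 6 against 5, of 17 in all. Western-plus-quercetin arrays were brighter than control arrays, with trimmed mean intensities of 91.2 ± 5.17 (SD, n = 6) and 75.1 ± 5.58 (SD, n = 5), which differed in an exact permutation test (two-sided p = 0.00433). The actin control probe sets had a log2 ratio of 3' to 5' signal of 0.55 ± 0.08 (SD, n = 6) in Western-plus-quercetin livers and 0.69 ± 0.06 (SD, n = 5) in control livers (exact permutation test, two-sided p = 0.0195), while the same ratio of Gapdh differed by -0.02 (exact permutation p = 0.331). None of the 11 hepatocyte markers tested passed in either direction, but 10 had negative differences, with a median of -0.11. Their mean level was 11.75 to 12.04 in Western-plus-quercetin livers against 11.92 to 12.12 in control livers. In 3 of the 6 Western-plus-quercetin livers it lay below every control liver. In RNA of a whole tissue, a change in the number of cells of a type and a change in RNA per cell cannot be told apart.

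Of 13645 genes tested with limma, 738 (5.41%) passed an adjusted p of 0.05 between Western-plus-quercetin and control livers. Among them 468 (3.43%) were higher and 270 (1.98%) lower, and at least 2-fold changes were seen in 57 that rose and 20 that fell. The groups did not overlap in 635 of all 13645 genes (4.65%), 467 of them among the 738, where the test itself favours such genes. The median log2 difference was -0.01 over all genes tested, and the 95% interval of a gene's difference reached a median of 0.24 to either side. The largest increases were those of Cidea, Cidec, Ly6d, Gpnmb, Mmp12, Lcn2, Gstm3, Cbr3, Adgrv1, Lpl, Scd2, Osbpl3, Anxa2, Sprr1a and Fabp4. The largest decreases were those of Hsd3b5, Sqle, Idi1, Slc22a7, Clec2h, Cela1, Cyp51, Rdh16f2, Hamp2, Gpx6, Msmo1, Enho, Hao2, Tm7sf2 and Rdh11. The split of calls followed the scaling, since 63.4% were higher here against 98.2% on the deposited scale and 84.7% after centring each array on its median, where the median of all genes moved to 0.22 and 0.04. The count fell to 460 without control mouse 6, 479 without Western-plus-quercetin mouse 2 and 481 without mouse 5, and that of decreases to between 165 and 178 without any 1 of control mice 2, 3 and 6 and Western-plus-quercetin mouse 2. A fit that also held the actin ratio called 155 genes. All 738 then kept their direction, with a median of 91.7% of the difference, while the median standard error was 0.14 against 0.12. Each gene was read by its brightest probe set, and other bright probe sets of some genes gave smaller differences, down to 0.26 for Anxa2 (1.60 by the brightest), 0.36 for Col1a1 (1.36), 0.45 for Fabp4 (1.58), 0.54 for Scd2 (1.74) and -0.05 for Enho (-1.21). With all probe sets of a gene averaged, the calls of Abca1 (adjusted p = 0.055), Fads2 (0.055), Vnn1 (0.0768), Hamp2 (0.0787) and Klb (0.215) were lost.

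**Figure D1:**
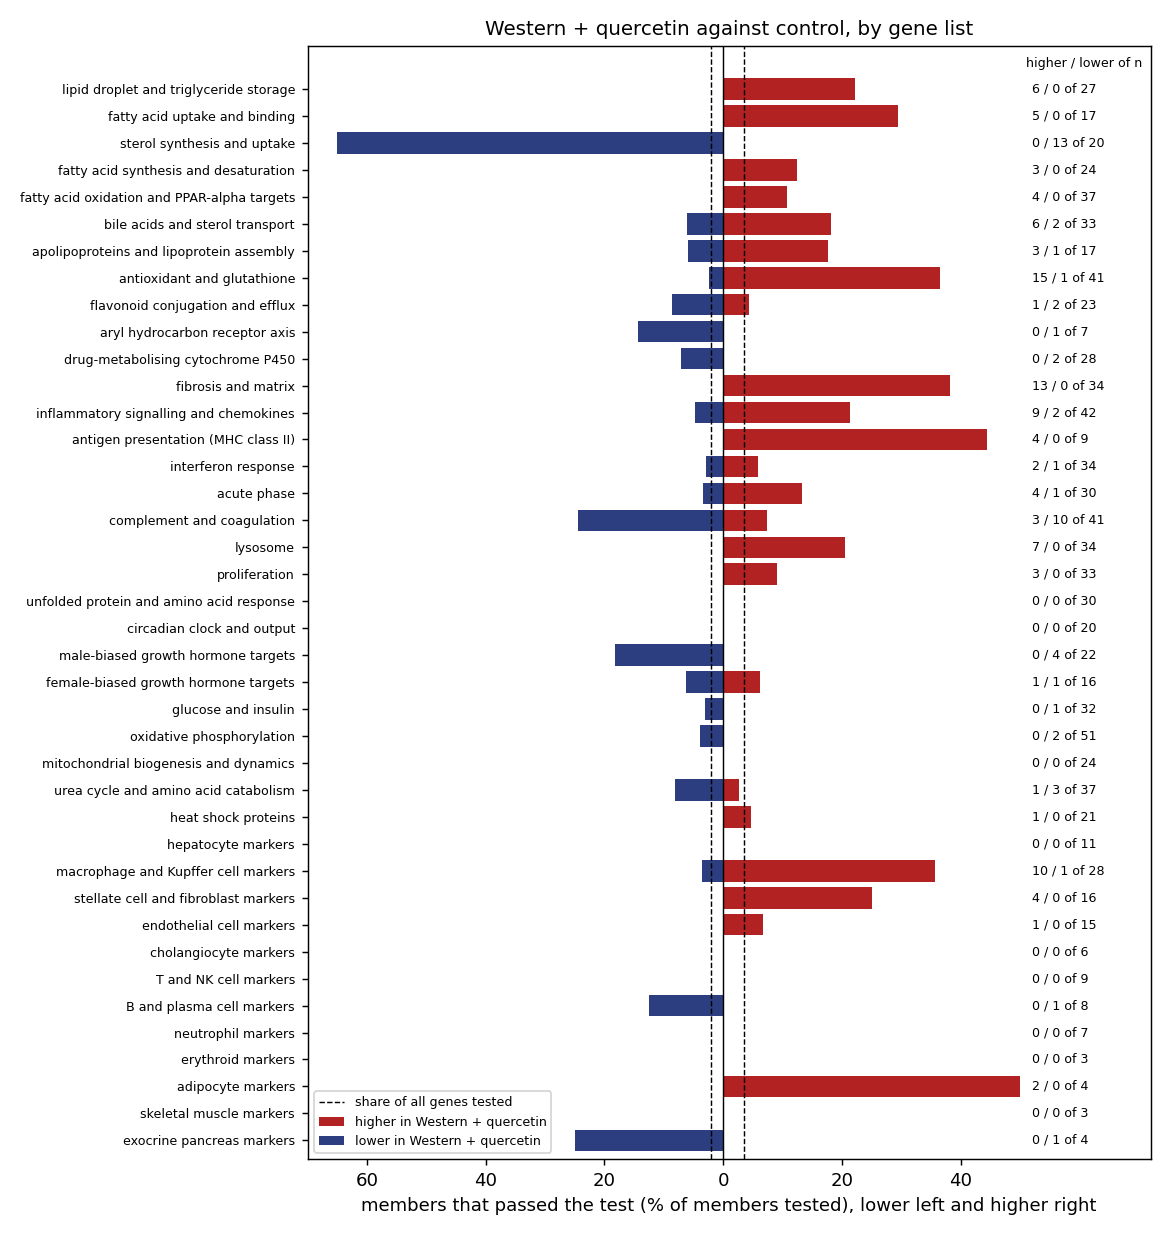
Share of the tested members of each gene list that passed the limma test between Western-plus-quercetin and control livers (horizontal axis, percent of members tested), higher to the right and lower to the left. Dashed lines mark the share of all genes tested, 3.43% higher and 1.98% lower, and the numbers at the right give the counts.

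A minority of lipid storage genes rose, some of them strongly. Of 27 tested genes of lipid droplets and triglyceride storage 6 were higher and 0 lower, with a median log2 difference of 0.14 over the list and negative differences in 8. Cidea and Cidec encode proteins that sit where droplets touch and let them merge into larger ones. Cidea had log2 signals of 9.16 at the lowest, 9.86 at the median and 10.61 at the highest in Western-plus-quercetin livers, against 5.35, 5.39, 6.26, 5.35 and 5.05 in control livers. Every Western-plus-quercetin liver lay above every control liver by a wide margin, and the difference of 4.38 (95% interval 3.92 to 4.84, adjusted p = 1.2e-09) is 20.8-fold. Cidec ran from 8.43 over a median of 8.89 to 9.11 in Western-plus-quercetin livers, against 5.66, 5.47, 5.23, 6.82 and 5.81 in control livers. Its groups did not overlap either, although control mouse 4-5 stood above the other controls, and the difference was 3.06 (2.60 to 3.52, adjusted p = 2.42e-07), 8.36-fold. The other 4 were Mogat1, a monoacylglycerol acyltransferase (1.93-fold, adjusted p = 0.000247), Plin4, a droplet coat protein (2.15-fold, adjusted p = 0.0134), Gpat3, which starts glycerolipid synthesis (1.52-fold, adjusted p = 0.0144), and Fitm1, an endoplasmic reticulum protein of droplet formation (1.43-fold, adjusted p = 0.00963). For Plin4, Gpat3 and Fitm1 the lowest Western-plus-quercetin livers overlapped the control livers. Plin2, the most common droplet coat of hepatocytes, differed by 0.15 (-0.06 to 0.37, adjusted p = 0.436) and did not pass. Pparg, the nuclear receptor that drives fat storage genes in adipocytes, lay between 6.86 and 7.78 with a median of 7.07 in Western-plus-quercetin livers, against 5.88, 6.37, 6.12, 6.46 and 6.08 in control livers. The groups were apart, and it was 2.03-fold higher (adjusted p = 0.00148). With the actin ratio held in the fit 3 of the 6 passed.

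**Figure D2:**
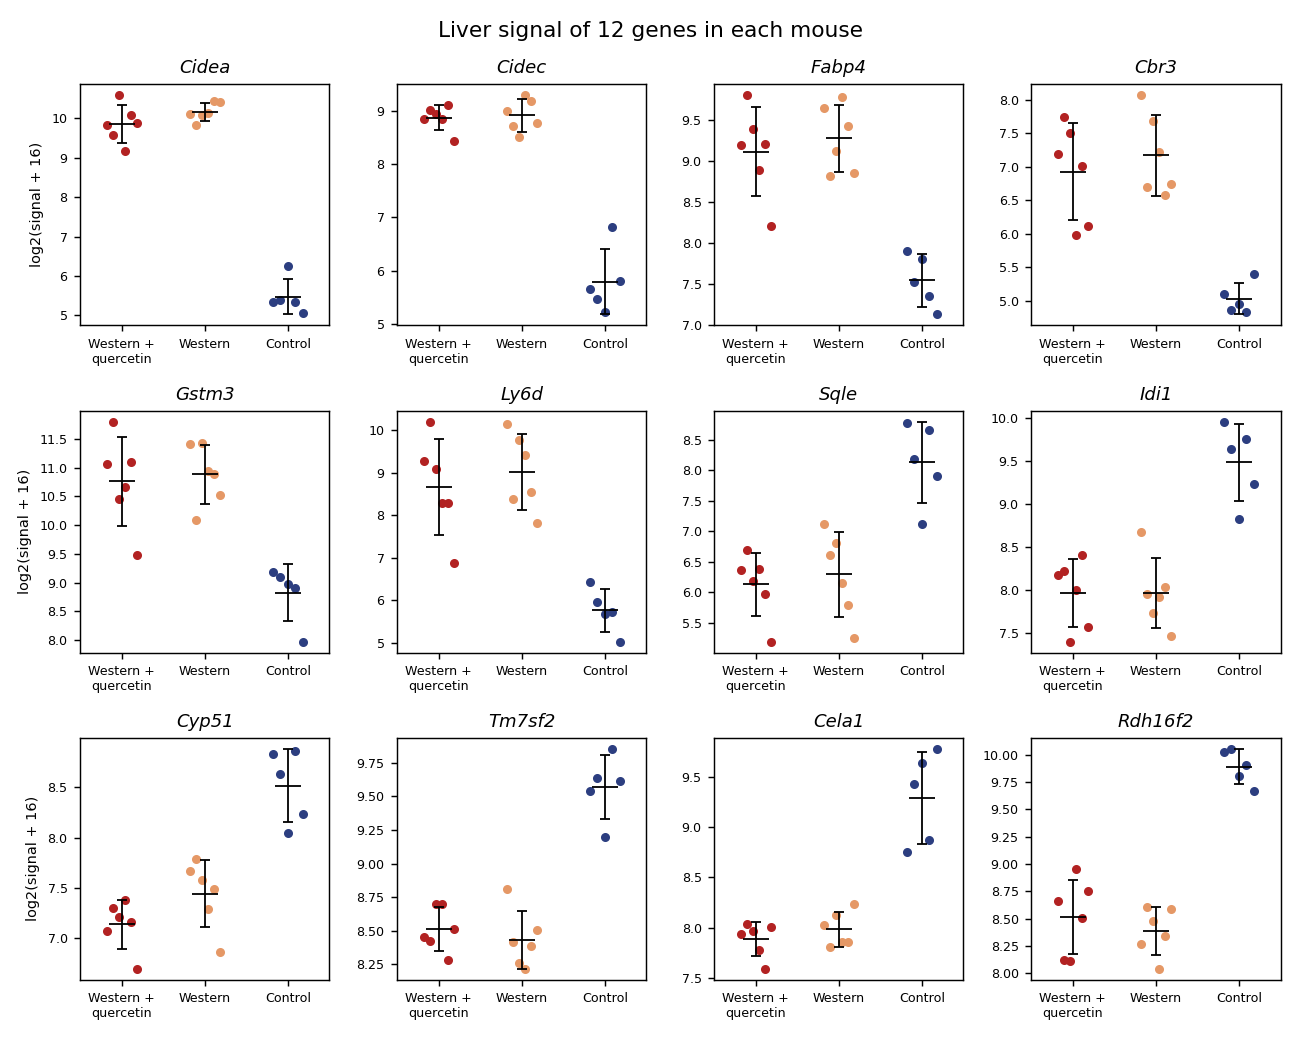
Log2(signal + 16) of 12 genes in each mouse (points), with the mean and SD of each group, for the Western diet with quercetin (n = 6), the Western diet (n = 6) and the control diet (n = 5). Western-plus-quercetin livers lie wholly above the control livers for Cidea, Cidec, Fabp4, Cbr3, Gstm3 and Ly6d and wholly below them for Sqle, Idi1, Cyp51, Tm7sf2, Cela1 and Rdh16f2.

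Uptake and binding of fatty acids rose in part, with 5 of 17 tested members higher and 0 lower and a list median of 0.04. Fabp4, a fatty acid binding protein of adipocytes and macrophages, had 8.20, 9.20 and 9.81 as lowest, median and highest level in Western-plus-quercetin livers, against 7.90, 7.52, 7.80, 7.35 and 7.12 in control livers. Its ranges did not meet and it was 2.98-fold higher (adjusted p = 0.00124). Lpl, the lipase that frees fatty acids from circulating triglyceride, had 8.03, 9.20 and 10.43 in Western-plus-quercetin livers, against 7.57, 7.04, 7.41, 7.97 and 7.55 in control livers. The groups were just apart, since the lowest Western-plus-quercetin liver (mouse 6) lay next to control mouse 4-5, and Lpl was 3.35-fold higher (adjusted p = 0.00297). The fatty acid transporter Cd36 was 1.80-fold (adjusted p = 0.00883), the intestinal-type binding protein Fabp2 1.41-fold (adjusted p = 0.00445) and the acyl-CoA synthetase Acsl4 1.58-fold higher (adjusted p = 0.0122). Of the adipocyte markers, Cidea and Fabp4 passed among 4 tested, 2 did not pass and 1 had a negative difference. The mean level of the 4 ran from 8.82 to 9.59 in Western-plus-quercetin livers against 7.52 to 8.08 in control livers. That mean includes the large increases of Cidea and Fabp4 given above, so it is no separate result about the other markers. The part of adipocytes in these results was not tested.

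Most genes of sterol synthesis and uptake fell. Of 20 members tested 13 were lower and 0 higher, all 20 had negative differences, and the list median was -0.77. Most members are enzymes of the chain that leads to cholesterol by way of mevalonate, and the others carry sterols or regulate the chain. Early in it Mvk, mevalonate kinase, fell by 0.76 (adjusted p = 0.000804), and Idi1, isopentenyl diphosphate isomerase, had 7.41, 8.09 and 8.41 as lowest, median and highest level in Western-plus-quercetin livers, against 9.96, 9.64, 8.83, 9.76 and 9.23 in control livers. No liver of one group reached the other, and Idi1 was 2.87-fold lower (adjusted p = 0.00107). Sqle, squalene epoxidase, a rate-limiting step, had 5.19, 6.28 and 6.69 in Western-plus-quercetin livers, against 8.78, 8.19, 7.12, 8.66 and 7.91 in control livers. It was 3.99-fold lower without overlap (95% interval of the log2 difference -2.71 to -1.29, adjusted p = 0.00215). Cyp51, lanosterol demethylase, had 6.70, 7.19 and 7.38 in Western-plus-quercetin livers, against 8.83, 8.63, 8.05, 8.86 and 8.23 in control livers. Its groups were likewise apart and it was 2.60-fold lower (adjusted p = 0.000194). Tm7sf2, a sterol reductase of the next step, had 8.28, 8.48 and 8.70 in Western-plus-quercetin livers, against 9.54, 9.64, 9.20, 9.85 and 9.61 in control livers. This was the smallest adjusted p of the list (7.62e-05), for a 2.08-fold decrease without overlap. The later enzymes Msmo1 (2.36-fold), Nsdhl (2.01-fold), Hsd17b7 (1.47-fold) and Ebp (1.26-fold) were also lower, with adjusted p from 0.0013 to 0.0173. So were Fdps (1.73-fold), Fdft1 (1.83-fold) and Lss (1.60-fold), which join and close the carbon chain, and Stard4, a cytosolic sterol carrier (1.52-fold), with adjusted p from 0.00161 to 0.0223. The call of Fdps ended without control mouse 1 (adjusted p = 0.0578) and without control mouse 4-5 (adjusted p = 0.0583). Hmgcs1, which makes the precursor of mevalonate, differed by -0.77 (-1.24 to -0.30, adjusted p = 0.0519), Mvd by -0.88 (-1.47 to -0.28, adjusted p = 0.0792) and Srebf2, the gene of SREBP2, by -0.29 (-0.54 to -0.05, adjusted p = 0.167), and none of these passed. Pmvk (-0.54, adjusted p = 0.101), Dhcr7 (-0.55, adjusted p = 0.113) and Sc5d (-0.24, adjusted p = 0.299), enzymes of the chain, and Insig1 (-0.06, adjusted p = 0.865), which retains SREBP2, did not pass either. Between 12 and 14 members were lower with any single mouse left out, 10 with the values as deposited, where Lss, Ebp and Hsd17b7 were lost, and 9 with the actin ratio held in the fit.

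**Figure D3:**
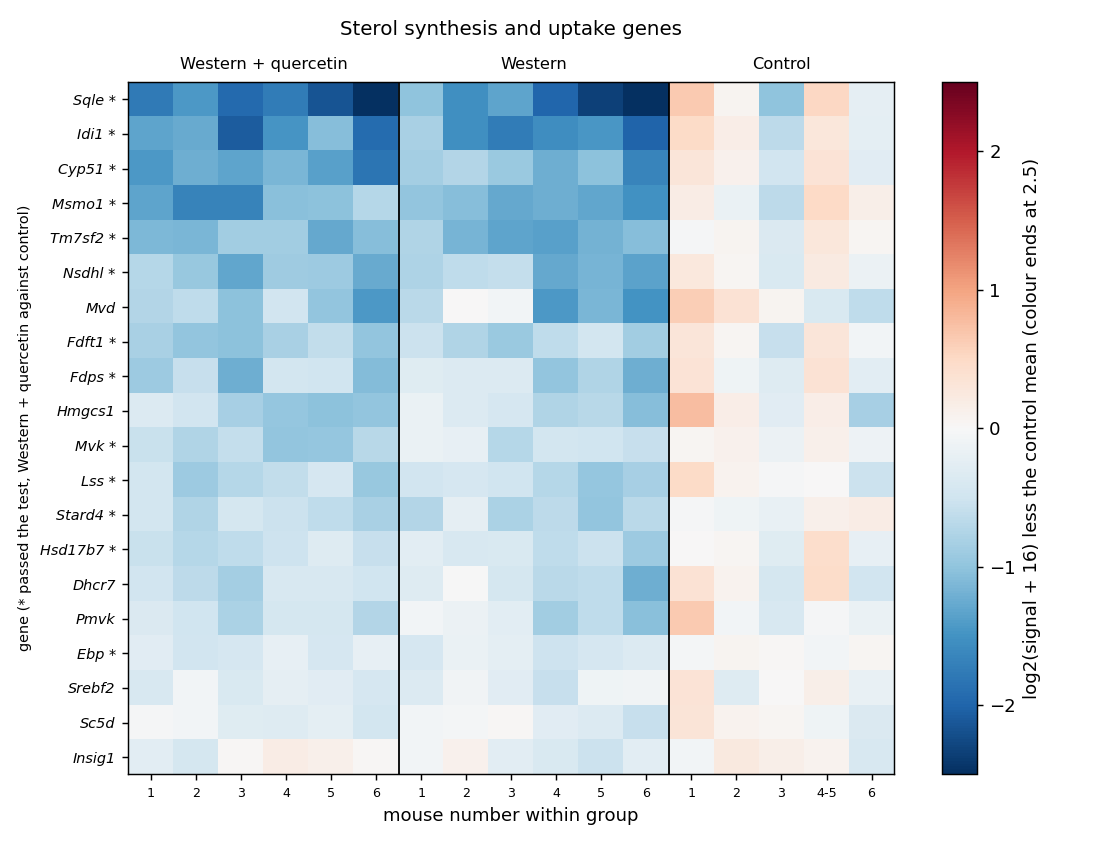
Log2(signal + 16) of the 20 tested sterol genes in each of 17 mice, less the mean of the control mice of that gene (colour, blue lower and red higher). The 13 genes with an asterisk passed the limma test between Western-plus-quercetin and control livers, and all 20 had a negative difference.

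Promoters of these genes were read from the RefSeq table of GRCm38.p6, whose windows of 300 bases lie mostly before the start site, and 9 of the 13 genes that fell had an entry. The promoters of Tm7sf2, Cyp51 and Idi1, 3 of these 9, are printed because they show what the 9 had in common that their expression did not choose, a CCAAT box, the element bound by the factor NF-Y. The box was searched as CCAAT on both strands and is in capitals, so it reads ATTGG where it lies on the other strand. Tm7sf2 lies at chr19:6067801-6068100 on the minus strand, Cyp51 at chr5:4104648-4104947 on the minus strand and Idi1 at chr13:8885356-8885655 on the plus strand.
Tm7sf2: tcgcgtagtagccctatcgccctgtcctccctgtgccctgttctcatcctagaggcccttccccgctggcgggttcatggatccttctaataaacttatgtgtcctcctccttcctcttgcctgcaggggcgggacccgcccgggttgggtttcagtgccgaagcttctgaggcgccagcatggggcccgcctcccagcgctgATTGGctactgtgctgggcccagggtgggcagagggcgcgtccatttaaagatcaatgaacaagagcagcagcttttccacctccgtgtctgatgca
Cyp51: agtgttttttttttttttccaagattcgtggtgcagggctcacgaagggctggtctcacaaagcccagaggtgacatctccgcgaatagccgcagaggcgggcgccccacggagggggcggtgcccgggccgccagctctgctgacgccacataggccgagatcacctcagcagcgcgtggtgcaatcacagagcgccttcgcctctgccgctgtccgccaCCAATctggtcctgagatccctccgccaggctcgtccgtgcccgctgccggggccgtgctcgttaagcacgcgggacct
Idi1: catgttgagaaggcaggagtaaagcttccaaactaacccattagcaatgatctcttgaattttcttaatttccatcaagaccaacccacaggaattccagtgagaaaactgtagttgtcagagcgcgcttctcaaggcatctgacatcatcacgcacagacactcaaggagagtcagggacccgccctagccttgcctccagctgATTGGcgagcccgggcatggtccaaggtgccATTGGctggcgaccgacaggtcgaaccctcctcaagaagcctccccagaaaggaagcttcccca

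The first base of the box stood 47 bases before the start site in Tm7sf2 and 29 before it in Cyp51. Idi1 held it at 45 and at 14 bases before the start. All 9 genes that fell held the box, and so did all 7 sterol genes with an entry that did not pass, against 4642 of 10981 tested genes with an entry (42.3%). By windows the counts were 9 of 9 for the genes that fell, 7 of 10 for those that did not pass, since some genes have several start sites, and 37.4% of all 32851 windows in the table. A sterol regulatory element, searched as TCACNCCAC on both strands, was in 0 of the 9 windows of genes that fell, 1 of 10 of those that did not pass and 1.24% of all windows. The 2 motifs do not overlap in their letters. A match or the lack of one in these windows is a description only and says nothing of binding.

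Transport of sterols and bile acids changed in both directions, with 6 of 33 tested members higher and 2 lower and a list median of -0.09. The cholesterol exporters Abcg1 (by 0.59 on the log2 scale, adjusted p = 0.00266) and Abca1 (1.31-fold, adjusted p = 0.0045) and the biliary sterol exporter Abcg5 (1.58-fold, adjusted p = 0.00962) rose. Abcg1 lay between 6.91 and 7.45 with a median of 7.06 in Western-plus-quercetin livers, against 6.71, 6.42, 6.60, 6.30 and 6.53 in control livers, without overlap. The efflux pumps Abcc3, Abcc4 (1.61-fold, adjusted p = 0.012) and Abcb4 (1.26-fold, adjusted p = 0.0443) also rose, but Abcb4 lost its call without any 1 of 12 mice, at most at 0.107 without control mouse 1. Klb, a co-receptor of endocrine fibroblast growth factors, fell by 0.45 (adjusted p = 0.00729). Slc10a1, which takes bile acids up from blood, fell by 0.52 (adjusted p = 0.0336), a call that ended without any 1 of 6 mice, at most at 0.0757 without control mouse 4-5. On the deposited scale neither Klb (adjusted p = 0.245) nor Slc10a1 (0.0764) passed. Cyp7a1, the rate-limiting enzyme of bile acid synthesis, spread widely in both groups, from 8.28 over a median of 9.42 to 10.59 in Western-plus-quercetin livers against 7.54, 7.06, 7.44, 9.93 and 10.22 in control livers. The groups overlapped and the difference of 1.00 (-0.23 to 2.24, adjusted p = 0.365) did not pass.

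Some genes of fatty acid synthesis and oxidation rose. Of 24 synthesis and desaturation genes 3 were higher, with a list median of 0.09. Scd2, a fatty acid desaturase that is low in normal liver, had 6.77, 7.61 and 8.88 as lowest, median and highest level in Western-plus-quercetin livers, against 5.88, 6.00, 5.76, 6.26 and 5.55 in control livers. It was 3.33-fold higher without overlap (adjusted p = 0.00214). Srebf1, the gene of the lipogenic SREBP1, was 1.58-fold higher (adjusted p = 0.0294) and the desaturase Fads2 1.40-fold (adjusted p = 0.0353), but Srebf1 lost its call without any 1 of 6 mice (at most 0.0748, without control mouse 1) and Fads2 without any 1 of 8 (at most 0.0967, without control mouse 3). Fasn, fatty acid synthase, ran from 11.15 to 11.88 in Western-plus-quercetin livers and from 10.10 to 11.93 in control livers, a difference of 0.29 (-0.33 to 0.91, adjusted p = 0.64). Of 37 oxidation genes and PPAR-alpha targets 4 were higher, with a median of 0.07: the fatty aldehyde dehydrogenase Aldh3a2 (1.60-fold, adjusted p = 0.00107), the peroxisomal enzymes Ehhadh (1.32-fold, adjusted p = 0.0173) and Acaa1b (by 0.27 on the log2 scale, adjusted p = 0.0206), and the pantetheinase Vnn1 (1.26-fold, adjusted p = 0.0437). Vnn1 lost its call without any 1 of 13 mice, at most at 0.116 without control mouse 3, and Acaa1b lost it without control mouse 6 (0.0568). With medians centred Ehhadh (adjusted p = 0.0557), Acaa1b (0.455), Vnn1 (0.0615) and Fads2 (0.0817) lost their calls, and 1 of the 37 oxidation genes was higher. With the actin ratio held in the fit 1 of the 37 and 0 of the 24 synthesis genes were higher. With the values as deposited 13 and 4 were. Of 17 apolipoprotein and lipoprotein assembly genes 3 rose and 1 fell. Apoa4, an apolipoprotein that rises with hepatic fat in mice, was 1.90-fold higher (adjusted p = 0.000473), Apoc2, the activator of lipoprotein lipase, 1.41-fold higher (adjusted p = 0.00348) and the third was Mogat1. Apom, the carrier of sphingosine 1-phosphate on HDL, had 9.79, 10.00 and 10.23 in Western-plus-quercetin livers, against 10.65, 10.82, 10.71, 10.61 and 10.88 in control livers. It was 1.66-fold lower without overlap (adjusted p = 0.000194).

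Antioxidant and glutathione genes rose more often than they fell. Of 41 antioxidant and glutathione genes tested 15 were higher, 1 was lower and 25 did not pass, with a list median of 0.31. Gstm3, a glutathione transferase, had 9.49, 10.87 and 11.80 as lowest, median and highest level in Western-plus-quercetin livers, against 9.18, 9.10, 8.98, 8.90 and 7.98 in control livers. Its groups were apart and it was 3.82-fold higher (adjusted p = 0.00234). Cbr3, a carbonyl reductase, had 5.97, 7.09 and 7.74 in Western-plus-quercetin livers, against 5.10, 4.85, 4.95, 4.83 and 5.40 in control livers. It was 3.71-fold higher without overlap (adjusted p = 0.00189). Ephx1, the microsomal epoxide hydrolase, had the smallest adjusted p of the list (5.45e-05) at 1.56-fold, and Taldo1, of the pentose phosphate pathway, was 1.33-fold higher (adjusted p = 0.00214). Gstm6 ran the other way, 1.48-fold lower (adjusted p = 0.0079, and 0.147 on the deposited scale). Glutathione transferases of the mu class are close in sequence and a probe set may read more than 1 of them. Nqo1, the textbook target of the antioxidant regulator NRF2, differed by 0.25 (0.01 to 0.49, adjusted p = 0.233) and did not pass. With the actin ratio held in the fit 5 of the 15 passed.

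A few genes that handle quercetin and other foreign compounds passed the test. Of 23 conjugation and efflux genes 1 rose and 2 fell: Abcc3, a basolateral pump of glucuronides (1.47-fold higher, adjusted p = 0.00531), the sulphotransferase Sult1c2 (1.83-fold lower, adjusted p = 0.00215) and the organic anion transporter Slc22a7 (2.86-fold lower, adjusted p = 0.0196). These were 13% of the list, against 5.41% of all genes, of which 3.43% were higher and 1.98% lower. With the actin ratio held in the fit 1 of the 23 was higher and 0 lower. Sult1c2 had 5.70, 6.11 and 6.33 in Western-plus-quercetin livers, against 7.28, 7.01, 7.08, 6.78 and 6.47 in control livers, without overlap. Slc22a7 overlapped, because Western-plus-quercetin mouse 6 stood at 8.45 among control livers, and its call ended without control mouse 3 (adjusted p = 0.0546) and without control mouse 6 (0.0609). In the aryl hydrocarbon receptor axis, which flavonoids can engage, Cyp1a2 was 1.74-fold lower (adjusted p = 0.0223, and 0.066 without control mouse 6) and the other 6 members tested did not pass. That single call is 14.3% of this short list, against 5.41% of all genes. Of 28 drug-metabolising cytochrome P450 genes Cyp1a2 and Cyp2u1 (1.81-fold, adjusted p = 0.00297) were lower and 0 higher, with a median of -0.10. These were 7.14% of the list, near the 5.41% of all genes.

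Macrophage markers rose in part, with 10 of 28 tested members higher, 1 lower and 17 not passing, and a list median of 0.56. Gpnmb, a membrane glycoprotein of lipid-laden macrophages, had 5.68, 7.06 and 8.07 as lowest, median and highest level in Western-plus-quercetin livers, against 4.92, 4.15, 4.30, 4.60 and 4.68 in control livers. It was 5.29-fold higher without overlap (adjusted p = 0.000265). The lectin Lgals3 (2.92-fold, adjusted p = 0.00368), the lysozyme Lyz2 (2.60-fold, adjusted p = 0.0042), the pore-forming Mpeg1 (1.72-fold, adjusted p = 0.00569) and the endosomal Cd68 (2.04-fold, adjusted p = 0.0145) rose as well. Cd163, the haemoglobin scavenger receptor of resident macrophages, went the other way at 1.77-fold lower (adjusted p = 0.0307), a call that ended without any 1 of 7 mice, at most at 0.0784 without control mouse 3, and that did not hold on the deposited scale (0.0655). The general macrophage marker Adgre1 differed by 0.58 (0.13 to 1.04, adjusted p = 0.128) and the Kupffer cell marker Clec4f by 0.35 (0.00 to 0.69, adjusted p = 0.247), and neither passed. The mean level of the 28 markers ran from 7.45 to 8.74 in Western-plus-quercetin livers and from 7.21 to 7.52 in control livers. Mouse 2 was highest and mouse 6, which overlapped the controls, lowest of the Western-plus-quercetin livers. With the actin ratio held in the fit 1 of the 10 passed.

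Collagen and matrix genes rose in part, 13 of 34 tested, with 0 lower, with a list median of 0.41. Col3a1 had 8.52, 9.32 and 10.32 as lowest, median and highest level in Western-plus-quercetin livers, against 7.98, 8.05, 8.12, 7.80 and 7.19 in control livers. It was 2.83-fold higher without overlap (adjusted p = 0.00204). Col1a1 was 2.57-fold (adjusted p = 0.0066), Col1a2 1.86-fold (adjusted p = 0.00189) and Col5a2 1.90-fold higher (adjusted p = 0.00242). Mmp12, a macrophage elastase, had 5.24, 6.68 and 7.52 in Western-plus-quercetin livers, against 4.93, 4.85, 4.93, 4.31 and 4.12 in control livers. It was 4.03-fold higher (adjusted p = 0.00204) and the groups were apart. Among 16 stellate cell and fibroblast markers 4 rose and 0 fell: Rgs5, a pericyte gene (1.85-fold, adjusted p = 0.0013), Col1a1, the proteoglycan Dcn (1.43-fold, adjusted p = 0.0207) and Lrat, which stores retinol in stellate cells (1.57-fold, adjusted p = 0.0183). The call of Dcn ended without control mouse 1 (0.0506) and without control mouse 2 (0.0525), and that of Lrat without control mouse 3 (0.0544). The mean level of the 16 markers ran from 6.63 to 7.23 in Western-plus-quercetin livers and from 6.44 to 6.66 in control livers. Of 15 endothelial markers Lyve1 alone passed (1.47-fold higher, adjusted p = 0.0152), which is 6.67% of that list against 5.41% of all genes. The part of the number of macrophages or stellate cells in the changes of these lists was not tested. The matrix count fell to 8 without control mouse 6 and to 4 with the actin ratio held in the fit.

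**Figure D4:**
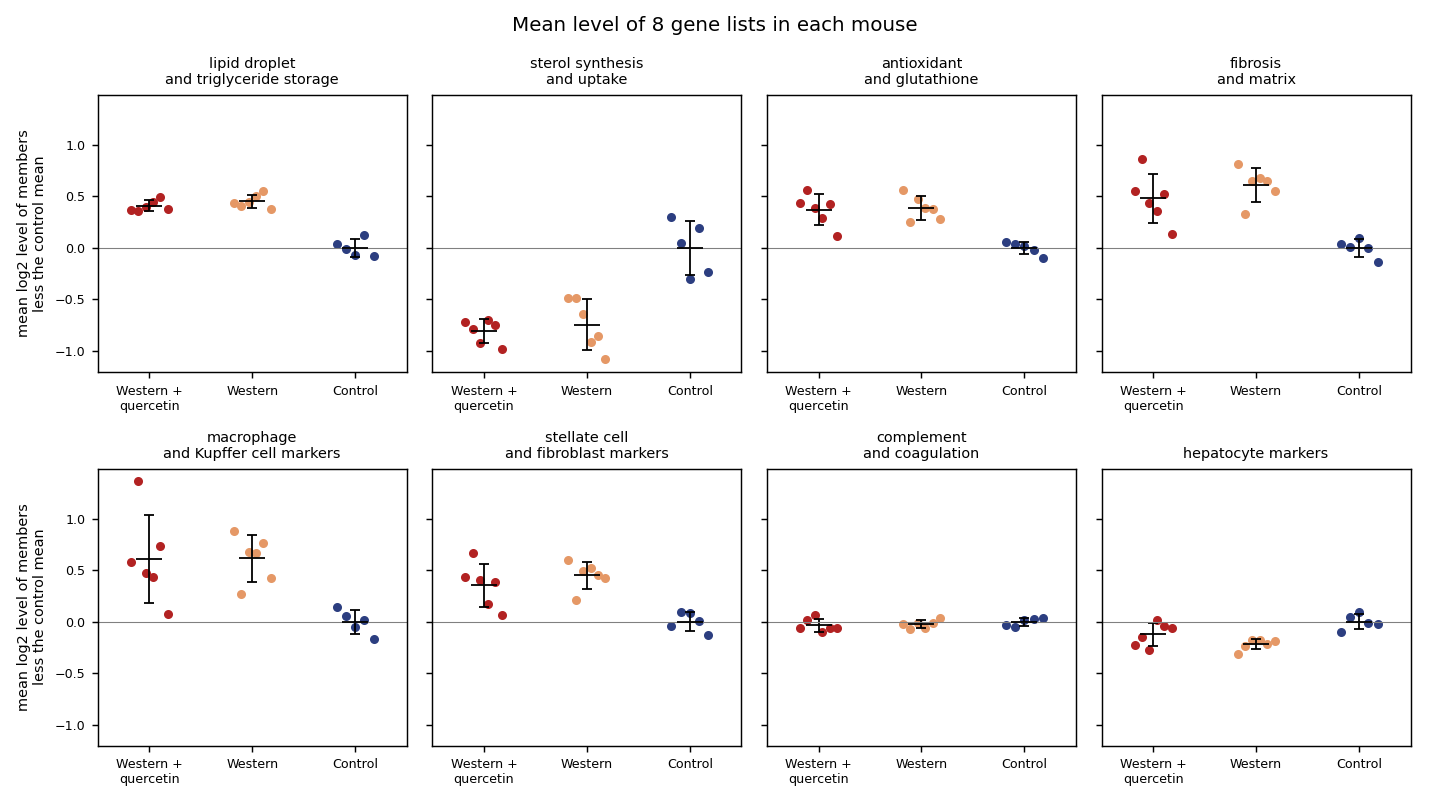
Mean log2 level of the tested members of 8 gene lists in each mouse (points), less the mean of the control mice, with the mean and SD of each group for the Western diet with quercetin (n = 6), the Western diet (n = 6) and the control diet (n = 5). All 6 Western-plus-quercetin livers lie below the controls for the sterol list and above them for the lipid droplet, antioxidant and matrix lists, while 5 of 6 do so for the macrophage and stellate lists.

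The Western-plus-quercetin mice differed more among themselves in these lists than in lipid droplet genes. Relative to the control mean, the mean level of the lipid droplet list was 0.36 at the lowest and 0.50 at the highest in the 6 Western-plus-quercetin livers, against -0.08 to 0.12 in control livers. The macrophage list spanned 0.08 to 1.36 in Western-plus-quercetin livers and -0.17 to 0.15 in control livers, and the matrix list 0.14 to 0.86 against -0.14 to 0.10. Mouse 2 was highest and mouse 6 lowest in both, as they were for the antioxidant list (0.56 and 0.11), while mouse 6 had the lowest mean of the sterol list (-0.98). Without mouse 6 the count of all genes called was 949.

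Immune signalling rose in part. Of 42 inflammatory genes 9 were higher and 2 lower, with a list median of 0.24. The chemokine Ccl6 had 7.81, 8.64 and 9.28 as lowest, median and highest level in Western-plus-quercetin livers, against 7.57, 7.37, 6.96, 7.41 and 7.30 in control livers. It was 2.43-fold higher without overlap (adjusted p = 0.00161). The monocyte attractant Ccl2 was 2.28-fold (adjusted p = 0.0031) and the receptor Tlr13 1.53-fold higher (adjusted p = 0.00908), whereas the cytokine Il18 was 1.33-fold lower (adjusted p = 0.0142) and Cxcl13, a B cell attractant, fell too. Neither decrease passed on the deposited scale (Il18 -0.13, adjusted p = 0.355; Cxcl13 -0.32, adjusted p = 0.17) or with medians centred (Il18 -0.31, adjusted p = 0.126; Cxcl13 -0.50, adjusted p = 0.105). The inflammatory count was 5 higher without control mouse 3 and without control mouse 6, and 1 with the actin ratio held in the fit. Of 9 class II antigen presentation genes 4 were higher and 0 lower: Cd74 (1.80-fold, adjusted p = 0.0212), H2-Eb1 (1.70-fold, adjusted p = 0.0207), H2-Aa (1.47-fold, adjusted p = 0.0355) and the protease Ctss. None of the 9 passed without control mouse 2, without control mouse 6 or with the actin ratio held in the fit. Of 34 lysosomal genes 7 were higher and 0 lower, among them the phosphatase Acp5 (1.32-fold, adjusted p = 0.00951) and the protease Lgmn (1.89-fold, adjusted p = 0.0172). That count was 3 or 4 without any 1 of control mice 2, 3 and 6 and Western-plus-quercetin mice 1, 2 and 5. It was 0 with the actin ratio held in the fit. Of 34 interferon response genes 2 rose and 1 fell, Oas3 (1.59-fold, adjusted p = 0.0156), Ifi27l2a (1.57-fold, adjusted p = 0.0202) and the GTPase Igtp (1.54-fold lower, adjusted p = 0.00175). These were 8.82% of the list, against 5.41% of all genes. Ifi27l2a lost its call without control mouse 3 (0.0545) and without Western-plus-quercetin mouse 5 (0.0503). None of 9 T and NK cell and none of 7 neutrophil markers passed. Of 8 B and plasma cell markers 1 fell, Jchain (1.33-fold, adjusted p = 0.0254), a call that ended without any 1 of 4 mice and under both other scalings.

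Secreted products of hepatocytes moved in both directions. Of 41 complement and coagulation genes 10 were lower and 3 higher, with a list median of -0.08. F11, coagulation factor XI, was 1.69-fold lower (adjusted p = 0.00322), C8b, a subunit of the membrane attack complex, 2.02-fold lower (adjusted p = 0.00685) and Serpind1, heparin cofactor II, 1.28-fold lower (adjusted p = 0.00543), while the anticoagulant Pros1 was 1.28-fold higher (adjusted p = 0.0069). The other 2 that rose, C3ar1 and C1qb, encode a receptor and a component of complement that macrophages make. Serpind1 showed the least spread of these, from 10.79 over a median of 10.82 to 10.89 in Western-plus-quercetin livers against 11.22, 11.24, 11.26, 11.05 and 11.12 in control livers, without overlap. Of the 10, 4 or 5 passed without any 1 of control mice 2, 3 and 6 and Western-plus-quercetin mice 1, 2 and 5, and 1 did with the actin ratio held in the fit. Only 2 of the 41 were lower with the values as deposited, where Serpind1 did not pass (-0.18, adjusted p = 0.145). Of 30 acute phase genes 4 rose and 1 fell. Lcn2, an iron-sequestering lipocalin, had 9.02, 9.45 and 10.23 in Western-plus-quercetin livers, against 8.72, 7.39, 7.25, 7.90 and 6.82 in control livers. It was 3.84-fold higher (adjusted p = 0.00432) without overlap, and Orm3 (2.87-fold, adjusted p = 0.00125), Orm2 (2.19-fold, adjusted p = 0.0272) and the metalloreductase Steap4 (1.38-fold, adjusted p = 0.00795) rose with it, Orm2 losing its call without any 1 of 6 mice. Orm2 and Orm3 are near copies and their probe sets may share signal. Hamp2, a hepcidin gene of the mouse, had 8.08, 9.71 and 10.43 in Western-plus-quercetin livers, against 10.85, 11.51, 10.71, 10.90 and 10.44 in control livers. It was 2.52-fold lower (adjusted p = 0.0256), a call that ended without control mouse 2 (0.0727) and without Western-plus-quercetin mice 1 (0.0513) or 2 (0.0611).

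Of metabolic genes outside lipid handling, 10.8% of the urea cycle and amino acid list, 3.92% of the oxidative phosphorylation list and 3.12% of the glucose and insulin list passed the test, against 5.41% of all genes. Of 37 urea cycle and amino acid genes 3 were lower and 1 higher, 33 had negative differences, and the median was -0.14. Hal, which opens histidine breakdown, was 1.85-fold lower (adjusted p = 0.00159). Gnmt, glycine methyltransferase, was 1.22-fold lower (adjusted p = 0.026), Nags, which makes the activator of the urea cycle, 1.29-fold lower (adjusted p = 0.0334) and the alanine transaminase Gpt2 1.37-fold higher (adjusted p = 0.0275), and each lost its call without any 1 of at least 4 mice, Gnmt and Nags also on the deposited scale. Of 51 oxidative phosphorylation genes 2 were lower, Atp5g1 (1.35-fold, adjusted p = 0.00939) and Cox6c (1.17-fold, adjusted p = 0.0432), 45 had negative differences and the median was -0.08. Cox6c lost its call without any 1 of 12 mice, and neither of them passed with the values as deposited or with medians centred. The second bright probe set of Cox6c differed by 0.21, the other way, and with all probe sets averaged neither Cox6c (-0.0086) nor Atp5g1 (-0.17, adjusted p = 0.188) passed. Of 32 glucose and insulin genes Enho alone passed. Enho, which encodes the peptide adropin, had 4.38, 4.78 and 5.04 in Western-plus-quercetin livers, against 5.71, 5.62, 5.88, 6.01 and 6.66 in control livers, a 2.32-fold decrease without overlap (adjusted p = 0.00165). Of 22 male-biased growth hormone targets 4 were lower and 0 higher, with a median of -0.21. They were Cyp2u1, C8b, Susd4 (1.93-fold, adjusted p = 0.018) and Hsd3b5, a steroid reductase of male mouse liver. Hsd3b5 had 5.99, 6.98 and 9.35 in Western-plus-quercetin livers, against 8.97, 9.83, 10.68, 9.90 and 11.05 in control livers. Its decrease of 6.13-fold was the largest among the genes that fell, but mice 3 and 6 overlapped the controls, the interval of the difference was wide (-4.17 to -1.06, adjusted p = 0.0466), and the call ended without any 1 of 11 mice, at most at 0.116 without control mouse 6. Susd4 lost its call without control mouse 6 (0.0552), and 2 of the 22 then passed. Of 16 female-biased targets Cd36 rose and Hao2, a peroxisomal hydroxy acid oxidase, was 2.22-fold lower (adjusted p = 0.0202, and 0.0525 and 0.0527 without control mouse 2 or 3).

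Of 33 proliferation genes 3 were higher and 0 lower (9.09%, against 5.41% of all genes), 27 had positive differences and the list median was 0.33. Those that passed were Mcm6 (1.81-fold, adjusted p = 0.00951), Ccnd1 (1.70-fold, adjusted p = 0.0358) and Mcm3 (1.55-fold, adjusted p = 0.0403), the last 2 of which lost their calls without any 1 of 9 and 7 mice. With the actin ratio held in the fit 0 of the 33 were higher, and 18 were with the values as deposited. Of 21 heat shock genes Hspb1, a small chaperone, alone passed (4.76% of the list, against 5.41% of all genes). It had 9.29, 9.69 and 10.63 in Western-plus-quercetin livers, against 8.43, 8.11, 8.66, 7.99 and 8.43 in control livers, 2.72-fold higher without overlap (adjusted p = 0.000233). None passed of 30 unfolded protein response genes, 20 circadian clock and output genes and 24 mitochondrial biogenesis genes, and with the values as deposited 4, 0 and 4 of these were higher.

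Several of the largest changes were in genes outside these pathways. Ly6d, a small surface protein first known from lymphoid cells, had 6.88, 8.69 and 10.20 as lowest, median and highest level in Western-plus-quercetin livers, against 6.43, 5.96, 5.67, 5.73 and 5.03 in control livers. It was 7.51-fold higher (adjusted p = 0.00204), and of the Western-plus-quercetin livers only mouse 6 came near the controls. Adgrv1, a very large adhesion receptor known from the inner ear, was 3.71-fold higher with little spread (adjusted p = 7.62e-05), the oxysterol-binding protein Osbpl3 3.19-fold (adjusted p = 0.000194), the membrane-binding Anxa2 3.03-fold (adjusted p = 0.00316) and Sprr1a, an envelope protein of keratinocytes, 3.02-fold (adjusted p = 0.00916). Cela1, an elastase known from exocrine pancreas, had 7.59, 7.95 and 8.04 in Western-plus-quercetin livers, against 8.75, 9.43, 9.63, 8.87 and 9.77 in control livers. It was 2.65-fold lower without overlap (adjusted p = 7.62e-05), while none of the other 3 pancreas markers tested passed. Rdh16f2, a retinol dehydrogenase family member, had 8.11, 8.58 and 8.95 in Western-plus-quercetin livers, against 10.03, 10.05, 9.81, 9.90 and 9.67 in control livers, and was 2.60-fold lower (adjusted p = 5.45e-05). A second retinol dehydrogenase, Rdh11, was 2.08-fold (adjusted p = 0.0129), the glutathione peroxidase Gpx6 2.46-fold (adjusted p = 0.000265) and the lectin-like Clec2h 2.78-fold lower (adjusted p = 0.00442).

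The same mice were set directly against the Western-fed mice without quercetin, to see where the quercetin group differed from the group on its own diet. No gene passed (0 of 13645, 0%), the smallest adjusted p was 0.9999, 392 genes had an unadjusted p under 0.05 where 5% of those tested is 682.25, and 0 genes passed under any of the alternative settings that gave this comparison. The 95% intervals reached a median of 0.23 to either side. For Cidea the Western-plus-quercetin and Western livers differed by -0.32 (-0.76 to 0.12), for Ly6d by -0.35 (-1.32 to 0.62), for Gpnmb by -0.09 (-0.72 to 0.54), for Sqle by -0.16 (-0.83 to 0.52) and for Cyp51 by -0.31 (-0.66 to 0.04). Intervals of this width leave room for differences in either direction, so a miss of the threshold does not show that the groups were alike. Mvk was lower by 0.33 (-0.55 to -0.11) and did not pass (adjusted p = 0.9999). Side by side, and with the control mice shared by both, the difference from control was 4.38 in Western-plus-quercetin and 4.70 in Western livers for Cidea, -1.52 and -1.52 for Idi1, 1.93 and 2.05 for Gstm3, 1.36 and 1.78 for Col1a1, and -1.34 and -1.80 for Hamp2. Lists showed these counts side by side: 13 and 13 sterol genes were lower than control, 15 and 18 antioxidant, 13 and 20 matrix and 10 and 14 macrophage genes were higher, and 2 and 9 interferon genes were higher. In the urea cycle and amino acid list 3 and 13 genes were lower and 1 and 0 higher than control. The share of all genes called between Western and control livers is not given here. A gap between such counts may follow the number of calls as a whole and is not a test of quercetin.

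Genes with the smallest p between Western-plus-quercetin and Western livers were the following, none of which passed. Zbtb8b (0.63), Kctd7 (0.45), Cenpq (0.40), Plekhg4 (0.38) and Cul5 (0.31) were higher with quercetin, and Nobox (-0.81), Eda (-0.54), Tmem121b (-0.49), Ercc6 (-0.36) and Zfp775 (-0.27) lower, as log2 differences. Of 34 interferon response genes 1 had a positive difference and 33 a negative one, with a median of -0.15, where 52.3% of all genes tested were negative. Ifit1, an antiviral effector, had -0.37 (-0.70 to -0.05) against the Western group and -0.56 (-0.89 to -0.22, adjusted p = 0.0516) against control livers. Of 37 urea cycle and amino acid genes 32 had a positive difference between Western-plus-quercetin and Western livers, with a median of 0.09, where 47.7% of all genes tested were positive. These lists were among the most one-sided, and others leaned too. Positive differences were seen in 5 of 34 matrix, 7 of 27 lipid droplet, 4 of 21 heat shock and 24 of 33 bile acid and sterol transport genes. Proliferation (17 of 33) and oxidative phosphorylation genes (27 of 51) were near even. Genes of a list are not independent of each other, and no member passed.

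Array numbers 1 to 3 and 4 to 6 had separated along a main axis of variation across all diets in earlier results of these data, so the comparison was also made within each set of numbers. This used 1 fit of all 17 samples, with a mean for each group and number set and a shared estimate of the spread. Between Western-plus-quercetin and control livers 665 genes then passed in numbers 1 to 3 (means of 3 against 3 mice) and 79 in numbers 4 to 6 (3 against 2). Separate fits of each number set alone gave 224 and 32. What the sets stand for is not stated by the labels. The difference between the sets passed for 8 of 13645 genes (0.0586%), and 1231 had an unadjusted p under 0.05. Cidea was 4.34 and 4.51 above control in numbers 1 to 3 and 4 to 6, Cidec 3.48 and 2.48, Sqle -1.61 and -2.43, Cyp51 -1.30 and -1.46, and Gstm3 2.02 and 1.98. Lpl (2.37 and 1.04), Osbpl3 (2.18 and 0.98), Hamp2 (-2.16 and -0.44) and Hao2 (-1.89 and -0.18) were further apart, with adjusted p of 0.507, 0.248, 0.316 and 0.226 for the difference between sets. That count was 2 without control mouse 4-5, 3 without Western-plus-quercetin mouse 4, 5 without any 1 of control mice 2 and 6 and Western-plus-quercetin mouse 3, and 13 without Western-plus-quercetin mouse 1. The 8 genes were Zbtb16, Fam102a, Tff3, Cry1, Cyp2b10, Rnf113a2, Synj2 and Themis. The 30 genes with the largest changes were chosen on these same mice, so their equal signs in both sets are no separate result.

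**Figure D5:**
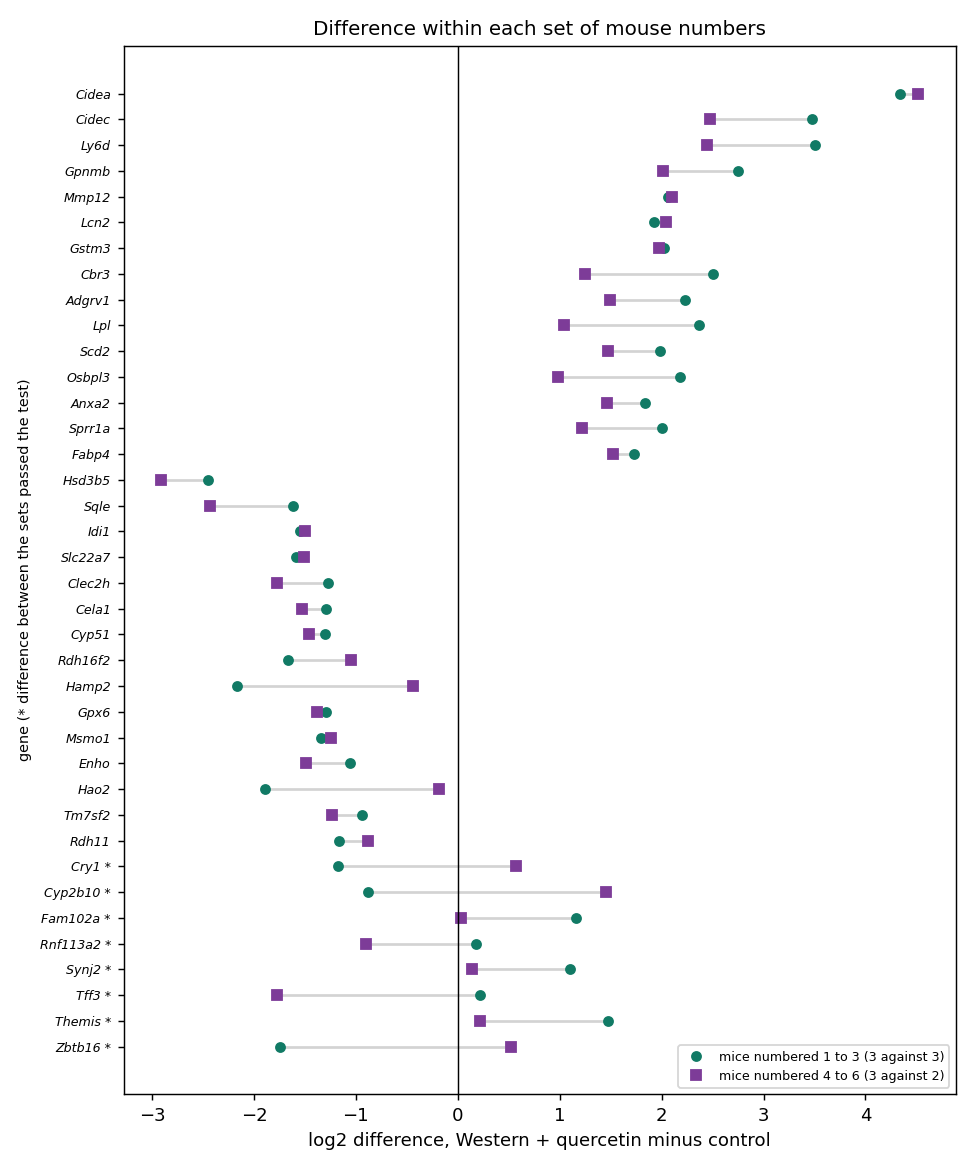
Log2 difference between Western-plus-quercetin and control livers within mouse numbers 1 to 3 (circles, 3 against 3) and 4 to 6 (squares, 3 against 2), for the 15 largest increases, the 15 largest decreases and the 8 genes (asterisks) whose difference between the sets passed the limma test. Hamp2 and Hao2 lie close to 0 in numbers 4 to 6, and the 8 genes lie far apart between the sets.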

How the data were processed

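Each Affymetrix array gave 1 deposited intensity per probe set on a linear scale, and how the authors scaled these intensities, and with which software, is not given in the sources used here. Of 45101 probe sets, 64 controls were left out and 34945 carried 1 gene symbol, 932 several and 9160 none; only the first kind was named. Intensities were taken as log2(value + 16) and quantile normalized over 18 arrays, control arrays 4 and 5 were averaged, each gene was read by its brightest probe set, and genes under the 25th percentile of the mean (log2 4.564) were removed, which left 13645 of 18193. limma 3.58.1 (R 4.3.3) fitted the 3 groups with 17 samples, and genes with a Benjamini-Hochberg adjusted p under 0.05 were called. Adjusted p-values in the text are from this fit unless an alternative setting, a mouse left out or the number sets are named. Those values come from fits of their own. Single quality measures were compared by exact permutation tests. The number of arrays limits the precision. Figures were drawn with Python 3.11.15 and matplotlib 3.10.9. The limma fit between Western-plus-quercetin and control livers was tested on simulated gene levels, and the other steps were not.

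Named genes were up to 15 increases and 15 decreases, the greatest in size among genes called with at least 5 of 6 Western-plus-quercetin mice on the changed side, up to 4 members of each list with the smallest p, up to 5 in each direction between the Western groups, and pathway landmarks that did not pass. Named outside that rule, after their values were seen, were Plin4, Gpat3, Acsl4, Nsdhl, Fdft1, Stard4, Lss, Ebp, Hsd17b7, Fdps, Abcg5, Abcc4, Abcb4, Slc10a1, Gstm6, Cd163, Pparg, Orm2, Cxcl13, C3ar1 and C1qb. The comparison, its 28 gene lists and its 12 marker lists were chosen with earlier results of these data known, so no list is independent evidence of its direction. Other scalings, pseudocounts, filters, blocks and covariates and the loss of each mouse were tried as alternatives.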

Additional observations from a re-analysis of the deposited data

Results flagged for a closer look

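In 127 genes named in the text, 15 of 254 groups held 1 mouse whose log2 level stood far from the rest of its group by Dixon's ratio, where chance gives about 1 in 20. The count is close to that share, so the values below only describe where single mice stood. Western-plus-quercetin mouse 2 stood out in Hspb1 (10.63, the others 9.29 to 9.74), Adgre1 (9.60, the others 8.04 to 8.40), Ephx1 (11.63, the others 11.35 to 11.43) and, on the low side, Slc10a1 (10.81, the others 11.47 to 11.73). Western-plus-quercetin mouse 6 stood out in Slc22a7 (8.45, the others 6.58 to 7.21) and Apoc2 (11.97, the others 12.23 to 12.33), mouse 1 in Mogat1 (7.61, the others 7.12 to 7.28) and Gpx6 (4.33, the others 4.92 to 5.21), and mouse 4 in Lrat (7.16, the others 7.55 to 7.78). Control mouse 1 stood out in Mogat1 (6.71, the others 6.11 to 6.25), Aldh3a2 (10.36, the others 10.67 to 10.79) and Orm2 (9.14, the others 7.91 to 8.05), mouse 3 in Cidea (6.26, the others 5.05 to 5.39), and mouse 6 in Gstm3 (7.98, the others 8.90 to 9.18) and Apoc2 (11.52, the others 11.79 to 11.85).

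The difference between Western-plus-quercetin and control livers was not the same in numbers 4 to 6 as in numbers 1 to 3 for 8 genes, by the interaction term in limma. Numbers 4 to 6 gave the higher value for Cyp2b10, a drug-metabolising cytochrome P450 (1.45 in numbers 4 to 6 and -0.88 in numbers 1 to 3, apart by 2.33, adjusted p = 0.0201), the transcription factor Zbtb16 (0.52 and -1.74, apart by 2.27, adjusted p = 0.0122) and the clock repressor Cry1 (0.57 and -1.17, apart by 1.75, adjusted p = 0.0201). They gave the lower value for the mucosal peptide Tff3 (-1.78 and 0.22, apart by -2, adjusted p = 0.0149), Themis (0.22 and 1.47, apart by -1.25, adjusted p = 0.026), Fam102a (0.04 and 1.16, apart by -1.12, adjusted p = 0.0122), Rnf113a2 (-0.90 and 0.18, apart by -1.08, adjusted p = 0.0201) and Synj2 (0.14 and 1.10, apart by -0.96, adjusted p = 0.0222).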

How the results depend on the processing

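Counts of genes called between Western-plus-quercetin and control livers moved with several settings, and the causes were not tested. With the values as deposited 3255 passed (3197 higher, 58 lower), and with medians centred 104 were lower. Fitting only these groups gave 466 (298 higher, 168 lower), only numbers 1 to 3 gave 224 (140 and 84), only numbers 4 to 6 gave 32 (19 and 13), and the actin ratio as a covariate gave 155 (91 and 64). Leaving out each mouse in turn gave 460 to 949 genes, 293 to 628 higher and 165 to 321 lower. With the number sets as a replicate block 1039 passed (412 lower), and with 1 replicate block per number 717. Same-numbered mice deviated together with correlations of 0.32, 0.12, 0.08, 0.13 and 0.19, of which 1 is under 0.1, so the numbers were not taken as pairs; mice of different groups had 0.11 on average within a number set and -0.10 between sets. With 1 replicate block per number 1 of the 4 class II antigen presentation genes still passed. List members called, 144 of 850, were 288 as deposited, 65 in numbers 1 to 3, 12 in numbers 4 to 6 and 41 with the actin covariate. The count of genes that differed between number sets was 5 as deposited and 2 to 13 with each mouse left out. Genes that did not pass changed sign for Plin2 in numbers 4 to 6 (-0.018) and for Fasn in numbers 1 to 3 (-0.22) and without control mouse 6 (-0.0052, the range over single mice left out being -0.0052 to 0.45). The named genes called kept their direction under every alternative run. The 95% intervals, with a median of 0.24 to either side, limit what smaller differences could be seen.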
